A study of Mus musculus with 8 samples.

Results

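The genes described here are 10 cell-surface adhesion molecules of the immunoglobulin superfamily that act on growing axons: Cntn1, Cntn2, Cntn4, Cntn6, Chl1, L1cam, Nrcam, Nfasc, Ncam1 and Alcam. They were chosen by name, and every probe that the deposited annotation assigns to them was followed, which gave 12 probes of the 55681 on the array (10 of 24088 named genes). Sorted Gfp-positive cells of E14.5 mouse embryos were pooled, with 1 pool on each of 8 arrays, and the question in the design is how dopaminergic subsets of the ventral midbrain differ. In every animal 1 Pitx3 allele carried Gfp, Pitx3(gfp/+), so that Gfp marks cells in which Pitx3, a transcription factor gene of midbrain dopaminergic neurons, is transcribed. The ventral midbrain was divided into a rostral and a caudal portion, and RNA of 4 pools per portion was labelled with Cy3; a pool combined 5 to 7 embryos, with litters mixed across pools. Gfp-negative cells of the same specimens, thus of the same genotype, formed a common reference that was labelled with Cy5 and hybridised to every array. No wild-type animals and no swap of the dyes were part of the arrays used, so each ratio also holds any difference between the dyes, and the reference counts as 1 control sample. Values are log2 ratios of a pool to that reference: 0 is an equal level, 1 is a doubling.

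Immunoglobulin adhesion molecules sit on axons and growth cones, where their extracellular domains bind to each other or to partners on neighbouring cells. Contactins (the Cntn genes) are held in the membrane by a lipid anchor and signal through partners. L1 family members (L1cam, Chl1, Nrcam, Nfasc), Alcam and some forms of Ncam1 instead span the membrane and reach the cytoskeleton. In the developing brain this class is known for axon bundling, outgrowth and guidance, and later for the organisation of the axon initial segment and the node of Ranvier.

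The genes that differed most between rostral and caudal pools were Cntn1, Nfasc and Alcam, so the promoter stretches of these genes are shown. RefSeq entries (GRCm38.p6) matched 9 of the 10 genes, with 14 start sites in all. Each sequence is the 250 bases before the first listed start site, 5′ to 3′ on the gene's strand, with CpG dinucleotides in capitals.
Cntn1, chr15:92050915-92051164, plus strand: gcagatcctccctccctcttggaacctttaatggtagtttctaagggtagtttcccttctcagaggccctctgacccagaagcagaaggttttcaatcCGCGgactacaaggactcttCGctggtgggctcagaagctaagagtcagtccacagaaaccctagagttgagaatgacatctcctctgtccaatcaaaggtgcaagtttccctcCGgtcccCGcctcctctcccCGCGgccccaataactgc
Nfasc, chr1:132707327-132707576, minus strand: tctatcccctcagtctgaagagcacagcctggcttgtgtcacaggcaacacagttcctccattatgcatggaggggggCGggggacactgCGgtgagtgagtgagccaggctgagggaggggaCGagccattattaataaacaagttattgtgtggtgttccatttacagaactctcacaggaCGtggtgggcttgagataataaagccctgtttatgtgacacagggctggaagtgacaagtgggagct
Alcam, chr16:52453082-52453331, minus strand: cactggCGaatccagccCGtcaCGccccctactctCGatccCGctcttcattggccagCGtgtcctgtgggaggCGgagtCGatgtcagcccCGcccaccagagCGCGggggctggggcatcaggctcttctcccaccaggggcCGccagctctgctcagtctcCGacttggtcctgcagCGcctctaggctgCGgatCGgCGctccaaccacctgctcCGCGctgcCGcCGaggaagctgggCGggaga
The Alcam stretch was the richest of these in G and C (69.2%, 22 CpG), whereas the Cntn1 stretch (53.6%, 7 CpG) and the Nfasc stretch (52%, 4 CpG) lay near the median of all 32851 promoters in the table (52.4%, 6 CpG). Both strands were searched for TAATTA (a homeodomain core of the Lmx1 and Engrailed class, in 4.84% of all promoters), TAATCC (Pitx and Otx class, 6.25%), AAAGGTCA (Nr4a receptors, 1.34%), TGTTTAC (Foxa, 3.17%) and TATAAA (the TATA box, 12.4%). None of these letters occurred in the 3 stretches shown. Over the 14 start sites, 2 held a match: TATAAA at the second Cntn1 start, 181 bases upstream on the minus strand, and TAATTA at the second Cntn4 start, 110 bases upstream. TAATTA reads the same on both strands, so no strand is given for it.

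Relative to Gfp-negative cells, the family was divided. Chl1, Alcam, L1cam and Cntn1 were higher in Gfp-positive cells, and Cntn4, Cntn6, Cntn2 and Nrcam were lower, with mean log2 ratios from 1.37 for Chl1 to -1.89 for Cntn4. Each gene is represented by the brightest of the probes that the deposited annotation assigns to it. For Chl1 and Cntn2 a probe outside that annotation, given below, was brighter. On these representing probes 9 of the 10 genes passed the test (limma, adjusted p below 0.05), 4 higher and 5 lower, and Nfasc did not. The 5 lower include Ncam1, whose direction changed with the probe and the scaling. The background is broad, since 71.5% of the 18659 genes tested passed in this comparison (34.6% higher, 36.9% lower), so the number of genes called is not a result about adhesion molecules. With rostral pools alone all 10 genes passed, 5 higher and 5 lower (61.1% of all genes, 29.4% higher and 31.7% lower), and with caudal pools alone 7 passed, 2 higher and 5 lower (59.2%, 27.6% and 31.6%). The median over the 10 genes was -0.14, beside -0.0033 over all genes. In bulk pools a lower value from fewer expressing cells and one from less RNA per cell cannot be told apart, and the p-values measure only the spread between these pools.

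**Figure D1:**
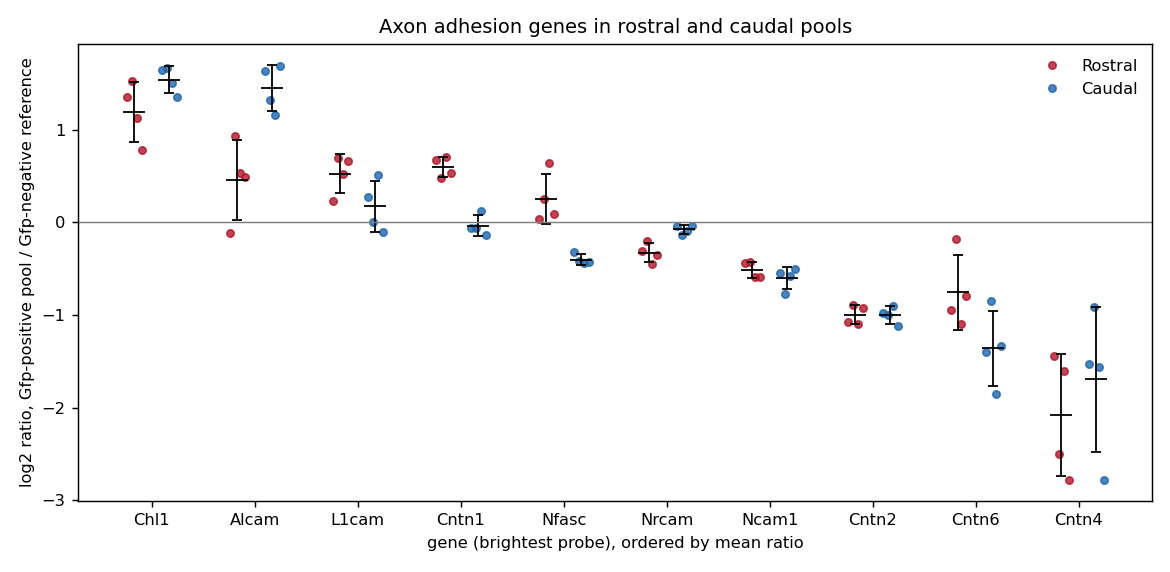
Log2 ratio of each Gfp-positive pool to the Gfp-negative reference (y axis) for each of the 10 genes (x axis, ordered by mean ratio). Each gene is shown by its brightest probe in the deposited annotation. Points are pools (red rostral, blue caudal, n = 4 each), horizontal bars are means and whiskers are 1 SD. Chl1 lies above 0 in all 8 pools and Cntn2, Cntn4 and Cntn6 lie below 0 in all 8, while the red and blue points of Alcam, Cntn1, Nfasc and Nrcam do not overlap.

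Of the 4 contactins among the 10 genes, Cntn1 alone was higher than in the reference. Cntn1 (probe A_55_P1960351), a contactin of axons that forms complexes with Caspr proteins and is a ligand of the receptor phosphatase Ptprz1, had log2 ratios of 0.67, 0.48, 0.70 and 0.53 in rostral pools 1 to 4 and of -0.06, -0.07, 0.12 and -0.14 in caudal pools 1 to 4. Every rostral pool thus lay above every caudal pool, and the caudal pools scattered around the level of the reference. The mean was 0.60 ± 0.11 in rostral pools and -0.04 ± 0.11 in caudal pools (SD, n = 4 each). Against the reference the rostral pools passed the test (adjusted p = 2.49e-05) and the caudal pools did not (adjusted p = 0.626), though with each array centred on its median in place of loess the caudal value rose to 0.24 (adjusted p = 0.00347).

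Cntn2 (A_52_P365732), also known as TAG-1, a contactin of early outgrowing axons, had log2 ratios of -1.07, -0.90, -1.10 and -0.93 in rostral pools and -0.98, -1.0, -0.90 and -1.12 in caudal pools. All 8 pools stood near 1 log2 unit below the reference, and the groups lay on top of each other. The mean of both groups was -1.0 (SE 0.056, adjusted p = 3.21e-07), a 2.0-fold lower level in Gfp-positive cells. Rostral and caudal pools differed by 0.00 (95% interval -0.25 to 0.25), so on this probe a regional difference above 0.25 in size lies outside the interval. A slightly brighter Cntn2 probe outside the deposited symbols (A_66_P125925) gave a difference of -0.16 (interval -0.60 to 0.28). That limit therefore does not hold for the gene. The ratio of that probe to the reference was -0.42, so the 2.0-fold size also belongs to A_52_P365732.

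Cntn4 (A_55_P2013893), a contactin known as a partner of App, was the lowest among the 10 probes that represent the genes. Its ratios were -1.45, -2.50, -1.61 and -2.78 in rostral pools and -1.53, -0.92, -1.56 and -2.78 in caudal pools. All 8 were below 0 but they spread over almost 2 log2 units, and the groups overlapped. The mean of -1.89 (SE 0.213, adjusted p = 4.05e-05) corresponds to a 3.71-fold lower level, and the regional difference of -0.39 had a wide interval (-1.35 to 0.57). A second Cntn4 probe in the annotation (A_55_P2013888) was not well above background in the sample channel of any array and in 2 of 8 reference channels, so it was not tested.

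Cntn6 (A_52_P412452), also called NB-3 and known as a partner of Chl1, had ratios of -0.95, -0.18, -1.10 and -0.79 in rostral pools and -1.40, -0.85, -1.85 and -1.34 in caudal pools. All pools were below the reference (mean -1.06, SE 0.127, adjusted p = 6.11e-05). The rostral mean of -0.75 ± 0.40 stood above the caudal mean of -1.36 ± 0.41, but single pools of the groups overlapped and the difference of 0.61 (interval 0.04 to 1.18) did not pass over all probes (adjusted p = 0.295).

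In the L1 family, Chl1 and L1cam were higher in Gfp-positive cells, Nrcam was lower, and Nfasc lay above the reference in rostral pools and below it in caudal pools. Chl1 (A_55_P2093774), close homolog of L1, a receptor in axon guidance and neuronal positioning, had ratios of 1.35, 1.53, 1.12 and 0.78 in rostral pools and 1.64, 1.67, 1.51 and 1.35 in caudal pools. Its mean of 1.37 (SE 0.082, adjusted p = 5.06e-07), 2.58-fold, was the highest among the 10 probes that represent the genes. The ranking depends on the probe: a brighter Chl1 probe outside the deposited symbols (A_52_P441294) gave 0.72, 1.65-fold, below Alcam at 0.96. On probe A_55_P2093774 caudal pools tended to the upper end, yet the difference of -0.35 (interval -0.72 to 0.02) did not pass (adjusted p = 0.369).

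L1cam (A_55_P2100555), the founding member of the family and a mediator of axon bundling, had ratios of 0.23, 0.69, 0.53 and 0.66 in rostral pools and 0.28, 0.01, 0.51 and -0.10 in caudal pools. It was higher in Gfp-positive cells by 0.35 (SE 0.086, adjusted p = 0.00531), with 7 of 8 pools above 0. The rostral mean passed against the reference (0.53 ± 0.21, adjusted p = 0.00509) and the caudal mean did not (0.18 ± 0.28, adjusted p = 0.249), though with median centring it was 0.43 and passed (adjusted p = 0.0233). The groups overlapped and the difference itself, 0.35 (interval -0.04 to 0.74), did not pass (adjusted p = 0.395).

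Nrcam (A_55_P2003541), which binds ankyrins and contactins and acts in guidance and at nodes of Ranvier, had ratios of -0.31, -0.20, -0.45 and -0.35 in rostral pools and -0.04, -0.14, -0.10 and -0.03 in caudal pools. All 8 pools were below 0 and the rostral pools were lower than every caudal pool. The mean against the reference was -0.20 (SE 0.029, adjusted p = 2.00e-04). The regional difference of -0.25 (interval -0.38 to -0.12) lay just above the threshold (adjusted p = 0.0508).

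Nfasc (A_55_P2173011), which encodes neurofascin, an organiser of the axon initial segment, had ratios of 0.04, 0.25, 0.64 and 0.09 in rostral pools and -0.32, -0.42, -0.43 and -0.43 in caudal pools. All rostral pools were above the reference and all caudal pools below it, so the mean over both, -0.07, did not pass (adjusted p = 0.332); it was 0.26 (adjusted p = 0.00407) with median centring. The caudal mean was -0.40 ± 0.06 (adjusted p = 0.00486), and -0.07 (adjusted p = 0.537) with median centring. The rostral mean of 0.25 ± 0.27 (adjusted p = 0.0386) was 0.59 (adjusted p = 3.21e-04) with median centring and 0.13 (adjusted p = 0.134) without rostral pool 3. Without rostral pool 2 the call was lost at a value of 0.26 (adjusted p = 0.0889), and without any 1 caudal pool at an unmoved value of 0.25 (adjusted p from 0.0509 to 0.0541).

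Alcam and Ncam1 stand outside these families. Alcam (A_51_P359272), a receptor that binds itself and Cd6 and acts in axon growth, had ratios of -0.12, 0.93, 0.54 and 0.49 in rostral pools and 1.64, 1.32, 1.16 and 1.69 in caudal pools. The caudal pools were all above the rostral pools, and rostral pool 1 was the lowest and the only pool below the reference. Caudal Alcam was 2.73-fold above the reference (1.45 ± 0.25, adjusted p = 6.00e-05). Rostral Alcam was 1.38-fold above it (0.46 ± 0.43, adjusted p = 0.0343), a call that was lost without rostral pool 2 (0.30, adjusted p = 0.153), pool 3 (adjusted p = 0.0963) or pool 4 (adjusted p = 0.0881), and with the scanner software's processed signals (0.61, adjusted p = 0.0686).

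Ncam1, the neural cell adhesion molecule and main carrier of polysialic acid, gave opposite signs with its probes in the annotation. The brighter probe (A_51_P380309) had ratios of -0.44, -0.43, -0.59 and -0.59 in rostral pools and -0.55, -0.77, -0.58 and -0.50 in caudal pools, all below 0 (mean -0.56, SE 0.033, adjusted p = 4.70e-07). With the scanner software's processed signals its mean was 0.04 (adjusted p = 0.273), so its direction depends on the scaling. The other probe (A_55_P2028942) had ratios of 0.30, 0.39, 0.26 and 0.38 in rostral pools and -0.10, 0.41, 0.51 and 0.78 in caudal pools, 7 of 8 above 0 (mean 0.37, SE 0.089, adjusted p = 0.00500). No single direction against the reference can therefore be given for Ncam1. Neither probe showed a regional difference that passed: the brighter differed by 0.09 (interval -0.06 to 0.23) and the other by -0.07 (interval -0.47 to 0.33).

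Accession numbers tied 4 more probes to these genes, outside the deposited symbols. For Chl1, a further probe (A_52_P441294) was higher too, in all 8 pools, by 0.72 (SE 0.027, adjusted p = 2.06e-08). For Cntn2, a further probe (A_66_P125925) was lower, by -0.42 (SE 0.098, adjusted p = 0.00389), and for Cntn4 (A_55_P2157978) by -0.49 (adjusted p = 3.52e-04), the latter well above background in the sample channel of 2 of 8 arrays. The third Ncam1 probe (A_55_P2050602) followed the brighter one with -0.91 (SE 0.136, adjusted p = 2.60e-04). Probes of 1 gene thus shared their sign for Chl1, Cntn2 and Cntn4, whereas those of Ncam1 differed in sign. No size is compared for Cntn4, whose further probe was -1.57 with the scanner software's processed signals.

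**Figure D2:**
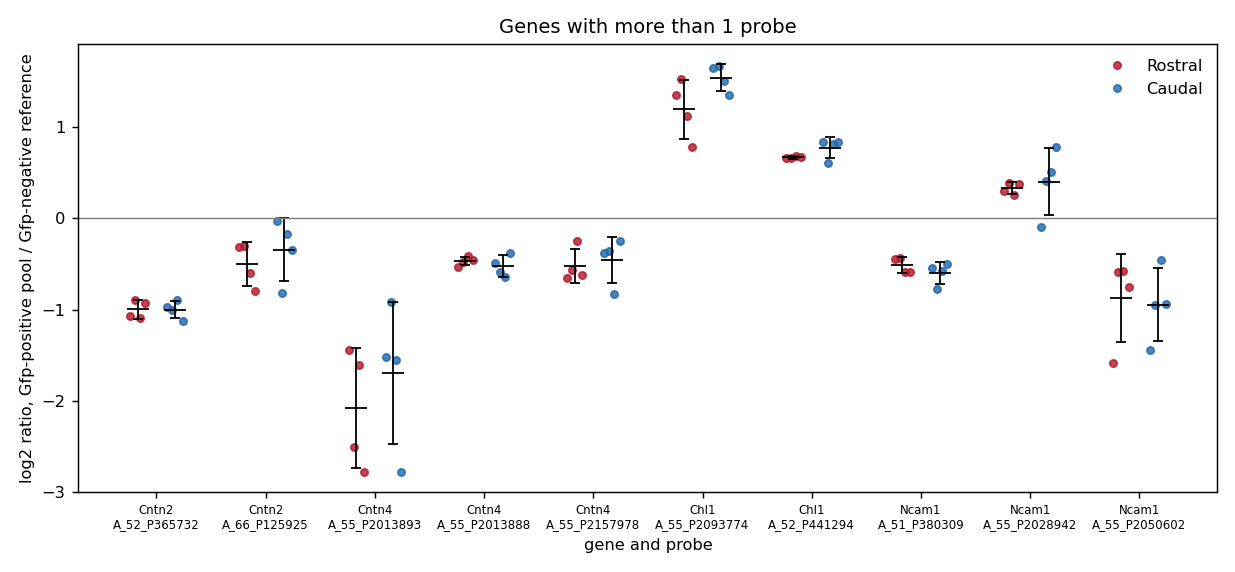
Log2 ratio to the Gfp-negative reference (y axis) for every probe of the 4 genes with more than 1 probe (x axis); points are pools (red rostral, blue caudal, n = 4 each), bars are means and whiskers 1 SD. All Chl1 probes lie above 0 and all Cntn2 and Cntn4 probes below it, while the Ncam1 probes lie at means of -0.56, 0.37 and -0.91.

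Between the rostral and caudal portions, Cntn1 and Nfasc were higher in rostral Gfp-positive cells. Cntn1 was 1.55-fold higher (log2 difference 0.63, SE 0.082, interval 0.45 to 0.82, adjusted p = 0.00563) and Nfasc was 1.57-fold higher (0.66, SE 0.129, interval 0.36 to 0.95, adjusted p = 0.0280). Alcam was the largest difference in size, 1.99-fold in the caudal direction (-0.99, SE 0.226, interval -1.50 to -0.48), and fell just short over all probes (adjusted p = 0.0501), as did Nrcam (adjusted p = 0.0508). These 2 calls of 10 genes compare with 4.99% of the 18195 genes tested (2.75% higher in rostral pools, 2.24% lower), and with 10 genes no excess is read from that. Rostral and caudal pools did not overlap for 4 of the 10 genes (Cntn1, Nfasc, Alcam, Nrcam), beside 12.5% of all genes tested. The median difference was 0.04 over the 10 genes and 0.0074 over all genes.

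**Figure D3:**
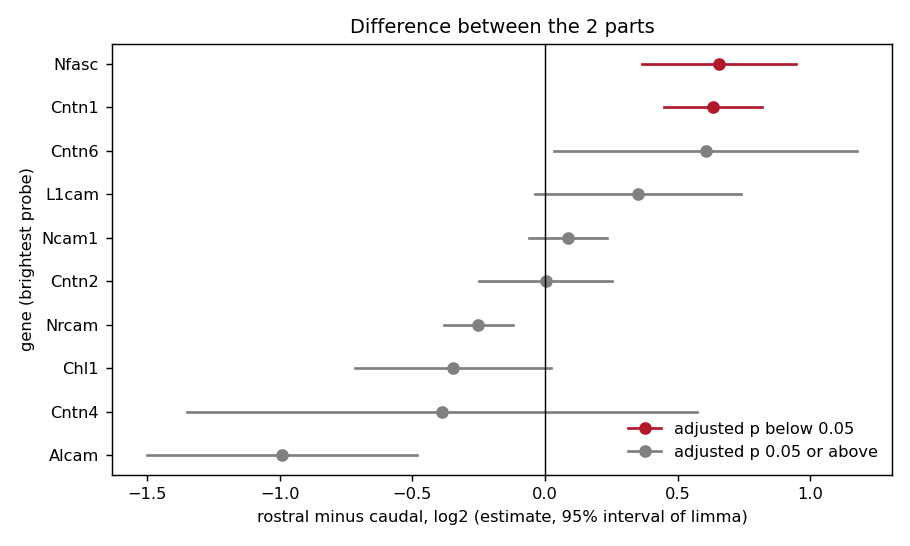
Rostral minus caudal log2 difference (x axis) for the brightest probe of each gene in the deposited annotation (y axis). Points are limma estimates from 4 rostral and 4 caudal pools, lines are 95% intervals, and red marks an adjusted p below 0.05. Nfasc and Cntn1 stand at 0.66 and 0.63, Alcam at -0.99 and Nrcam at -0.25 have intervals clear of 0 but adjusted p-values of 0.0501 and 0.0508, and the intervals of Cntn2 and Ncam1 are centred near 0.

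The call for Cntn1 held with each pool left out in turn (adjusted p from 0.00898 to 0.0230), whereas that for Nfasc was lost without rostral pool 2, or caudal pool 1, 2, 3 or 4 (adjusted p from 0.0649 to 0.0797) while its estimate stayed between 0.53 and 0.73. Alcam and Nrcam passed when only the brightest probe of each named gene was tested, a choice made after the data were seen (adjusted p = 0.0331 and 0.0343), and when all probes of a gene were averaged (0.0352 and 0.0365). Leaving out 1 pool moved Alcam between -0.80 and -1.15. The arrays lay in 2 rows of the slide, each with 2 rostral and 2 caudal pools, and within row 1 and row 2 the differences were 0.64 and 0.63 for Cntn1, 0.51 and 0.80 for Nfasc, -1.07 and -0.91 for Alcam and -0.17 and -0.33 for Nrcam. The directions were thus the same in both rows, although with 2 against 2 no probe of any gene passed.

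The regional differences lay mainly in the sample channel. On the log2 level of each channel, Cntn1 was 14.09 ± 0.17 in rostral and 13.45 ± 0.05 in caudal samples, while its reference level was 13.49 ± 0.08 beside rostral and 13.49 ± 0.06 beside caudal samples. The corresponding sample and reference differences were 0.65 and -0.01 for Nfasc, -1.06 and -0.07 for Alcam, and -0.19 and 0.07 for Nrcam. Part of the small Nrcam difference thus lay in the reference channel. None of the 11 tested probes that carry the deposited symbols passed for a rostral against caudal difference in the reference channel, where 4 of 36976 probes did (limma; 1176 at an unadjusted p below 0.05).

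**Figure D4:**
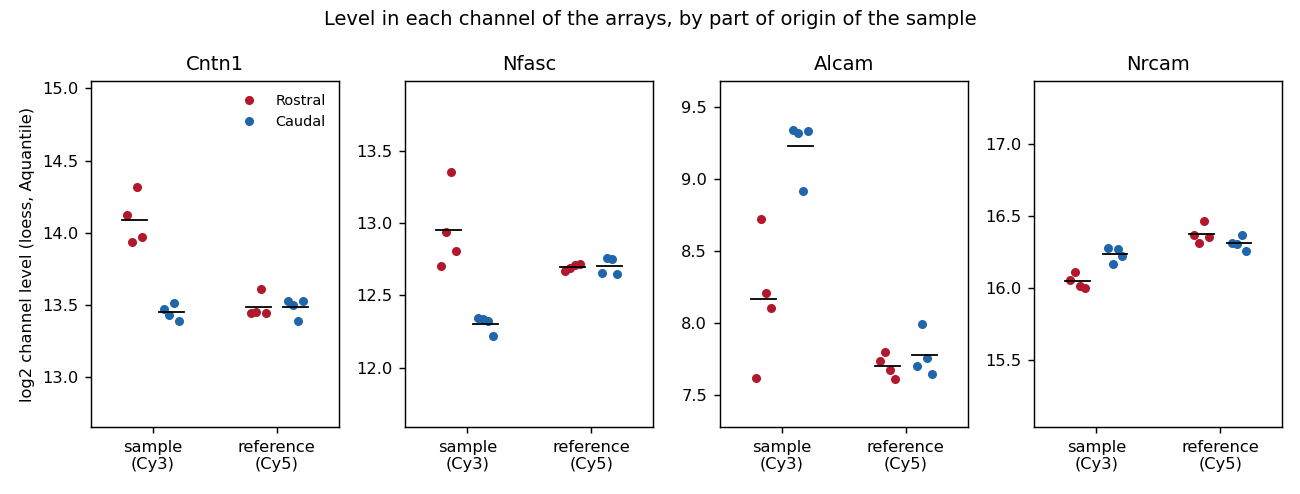
Log2 level in the sample channel (Cy3) and the reference channel (Cy5) of each array (y axis, each panel spanning the same number of log2 units) for Cntn1, Nfasc, Alcam and Nrcam; points are arrays by the origin of their sample (red rostral, blue caudal, n = 4 each) and bars are means. The red and blue points separate in the sample channel and overlap in the reference channel; levels of different genes are not comparable because probes differ.

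Sorted pools carried the dopaminergic profile that the label implies. All 10 dopaminergic markers were higher than in the reference (median log2 ratio 3.49), including Th, which encodes tyrosine hydroxylase, at 3.34, and Slc6a3, the dopamine transporter, at 5.98. Of all genes tested, 34.6% were higher. Pitx3 is among the 10 markers, and since Gfp at its locus was the basis of the sort, it gives no independent support. Between the portions, where 4.99% of all genes passed, 2 of 10 dopaminergic markers were lower in rostral pools (Slc18a2, -0.56, and En1, -0.78). Of 10 GABAergic markers, 2 were higher there (Dlx1, 1.61, and Dlx2, 3.13) and 1 lower (Tal2, -1.79). Of 6 glutamatergic and red nucleus markers tested, Tbr1 was higher in rostral pools (1.84) and Pou4f2 (-2.78) and Nkx6-1 (-2.55) were lower. Of 10 pan-neuronal markers, Rbfox3 was higher (0.30) and Tubb3 lower (-0.39), and single genes passed in the motor (Isl1, 1 of 8, higher), microglial (Mrc1, 1 of 7, higher), serotonergic (Fev, 1 of 4, lower) and radial glial (Vim, 1 of 9, lower) lists. The summed sample-channel level of the GABAergic list was 154510 to 251800 in rostral and 110830 to 169550 in caudal pools, overlapping, and that of 7 pericyte and mesenchyme markers was 2443 to 9556 and 1597 to 2127, not overlapping, although 0 of its 6 tested genes passed. The part of such other cells in the differences of Cntn1, Nfasc and Alcam was not tested. Probes well above background made up 62.5% to 70.4% of each sample channel. Over the brightest probe of each named gene tested, the ratios of any 2 arrays correlated at 0.81 to 0.91. All probes of the 10 genes were well above background in both channels of all 8 arrays, other than A_55_P2013888 and A_55_P2157978 of Cntn4.

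The genes whose ratios followed Nfasc most closely over the 8 pools, out of 18142 compared, were Myo1d (Pearson r = 0.985), Olfr107 (0.982) and Dusp26 (0.976). Of these, Myo1d, an unconventional myosin, was higher in rostral pools by 1.04 (adjusted p = 0.0132) and Dusp26, a phosphatase, by 0.22 (adjusted p = 0.0288). For Alcam they were Mthfd2 (0.980), a mitochondrial folate enzyme, Nr2f6 (0.973), a nuclear receptor, and Kptn (0.972), and Nr2f6 was lower in rostral pools (-0.47, adjusted p = 0.0446). These are descriptions over 8 pools that share 1 reference and 1 slide.

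Several of these genes are neighbours in RefSeq's gene order. On chromosome 6, Cntn3, Chl1, Cntn6 and Cntn4 follow each other as protein-coding genes, and their ratios to the reference were -1.51, 1.37, -1.06 and -1.89, so Chl1 was the single member of that row above 0. On chromosome 1, Cntn2 lies next to Nfasc. Nfasc differed between the portions, whereas Cntn2 gave 0.00 on probe A_52_P365732 and -0.16 on probe A_66_P125925, neither passing.

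Partner genes were followed in 5 lists of 75 genes, of which 71 were tested. Against the reference 29 were higher and 25 lower (76.1%, beside 71.5% of all genes; median 0.04). Between the portions 6 were higher in rostral pools (Cadm2, Ntm, Ank2, Vcan, Ptprz1 and App) and 3 were lower (Igsf8, Negr1 and Nrp1), 12.7% beside 4.99% of all genes, with a median of 0.05. Of these 9, Cadm2, Ntm, Vcan and Ptprz1 kept their call with each pool left out in turn (adjusted p at most 0.0340), and each of the other 5 lost it without at least 5 of the 8 pools left out singly. The lists were chosen with earlier results of these data known, so no excess among partners is read from the 12.7%.

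Among Caspr proteins, the axonal partners of contactins, and other contactins, 4 of 6 tested were higher and 1 lower against the reference. The 4 include Cntnap2 (0.24, adjusted p = 0.00911), whose other tested probe was lower (-0.84, adjusted p = 6.32e-06), so its direction depends on the probe. Cntnap4 was higher by 1.33 (SE 0.084, adjusted p = 7.35e-07) and Cntnap1 by 0.43 (SE 0.056), while Cntn3, a contactin of the same chromosome 6 row, was lower (-1.51, SE 0.121). Cntn5 was 1.45-fold higher as measured (0.54, adjusted p = 0.00595). Its sample channel was well above background on 6 arrays and its reference on none, so the size is uncertain. It was 0.46 with median centring and 1.95 with the scanner software's processed signals. Against the reference the rostral value of 0.67 passed (adjusted p = 0.0148) and the caudal value of 0.41 did not (adjusted p = 0.097). None of the 6 tested genes passed between the portions. Cntnap2 came closest, at 0.56 (adjusted p = 0.0545), and its other tested probe gave 0.21.

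Of 24 other neuronal immunoglobulin genes, 11 were higher and 7 lower than in the reference. Lsamp, a lipid-anchored IgLON protein, was higher by 1.67 (its second probe 0.26, not passing) and Cadm1, a synaptic adhesion molecule, by 0.75, whereas Thy1 (-2.36) and Boc, a Hedgehog co-receptor (-1.84), were lower. Between the portions Cadm2, of the same family as Cadm1, was higher in rostral pools by 1.32 (SE 0.136, adjusted p = 0.00262), and its other probes gave 1.16 and 1.22. Ntm, an IgLON protein, was higher by 0.93 (adjusted p = 0.00845), and its other probe gave 0.96 (adjusted p = 0.127). Against the reference, Ntm was lower in caudal pools (-1.05), while the rostral value of -0.12 did not pass. Negr1, another IgLON protein, was lower in rostral pools (-0.52, adjusted p = 0.0270; other probes -0.44 and -0.20, adjusted p = 0.516 and 0.935), as was Igsf8 (-0.49, adjusted p = 0.0262).

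Of 15 cytoskeletal linkers of the L1 family, 5 were higher and 8 lower against the reference. Epb41l3, a protein that ties membrane proteins to spectrin, was higher by 1.48 and Dcx, the microtubule protein doublecortin, by 0.82 (other probes 0.36 and 0.41), while the membrane linkers Ezr (-2.75) and Msn (-2.12) were lower. Ank2, an ankyrin that anchors L1 family tails to spectrin, was the 1 linker that passed between the portions (0.41, SE 0.085, adjusted p = 0.0339), and it was lost with median centring (0.38, adjusted p = 0.0971).

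Of 17 extracellular and membrane partners tested, 5 were higher and 6 lower against the reference. Bcan, the proteoglycan brevican, was lowest at -4.55 (second probe -2.87), while Aplp1, an App family member, was higher by 0.80. Fgfr1 was lower on its brightest probe (-0.99) and on another (-0.71), but a further probe was higher (0.20, adjusted p = 0.00626). Vcan, the proteoglycan versican, was higher than the reference by 0.98 and in rostral against caudal pools by 0.80 (adjusted p = 0.00184). Its other tested probe was instead lower than the reference (-0.49, adjusted p = 0.00210) and gave -0.19 between the portions (adjusted p = 0.775). Ptprz1, the phosphatase that binds Cntn1, was higher in rostral pools by 1.01 (adjusted p = 0.0122), with other probes at 0.90 (adjusted p = 0.0457) and 0.58 (adjusted p = 0.581). Its brightest probe was nevertheless below the reference in rostral (-0.55) and caudal (-1.57) pools. Over both groups its other probes were at -1.11 and 0.09 against the reference, the latter not passing. App was higher by 0.27 (adjusted p = 0.0309) and Nrp1, a semaphorin co-receptor that associates with L1cam, was lower in rostral pools (-0.79, adjusted p = 0.0309).

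Of 9 genes of polysialylation, shedding and kinases, 4 were higher and 3 lower against the reference and none passed between the portions. St8sia2, a polysialyltransferase that modifies Ncam1, was higher by 0.52 (SE 0.060, adjusted p = 4.62e-05) and Plcg1, a phospholipase, by 0.48 (its other probe -0.26, adjusted p = 0.164). Adam17, a sheddase, was lower (-0.41; other probe -0.22, adjusted p = 0.0905; -0.18 and not passing with median centring). Gap43, a growth cone protein, was lower by -0.16 and turned to 0.45 with the scanner software's processed signals.

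**Figure D5:**
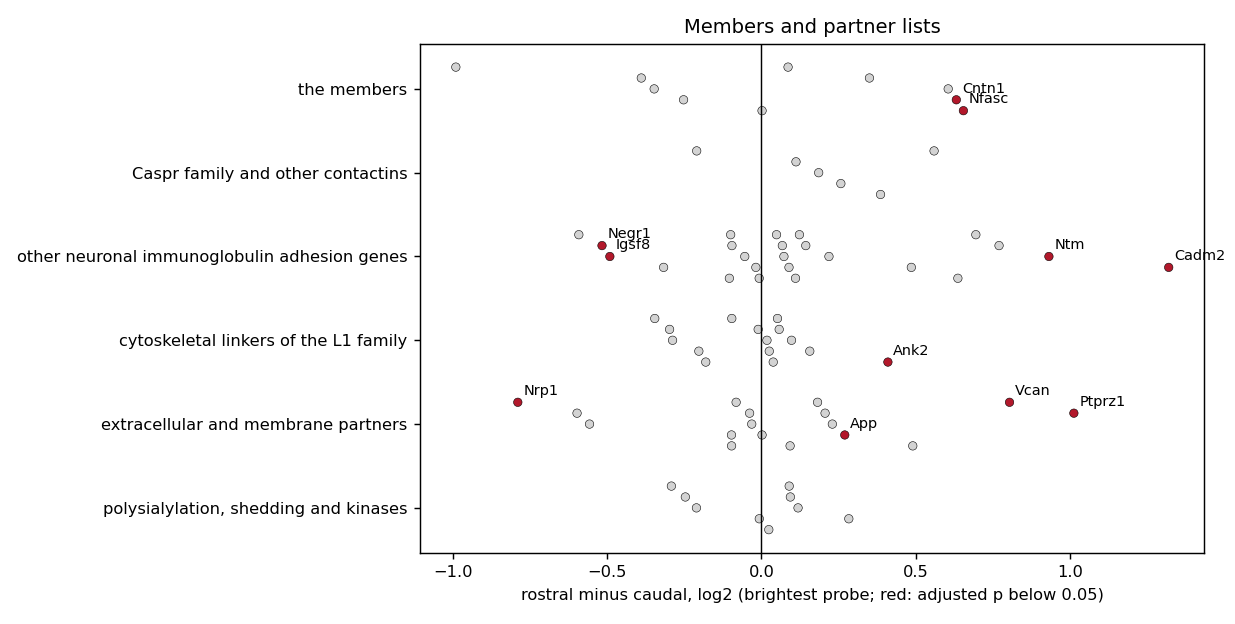
Rostral minus caudal log2 difference (x axis) for the 10 adhesion genes and the 5 partner lists (y axis). Each tested gene is shown by its brightest probe, for the 10 adhesion genes among the probes of the deposited annotation. Points of a list are spread vertically for legibility only. Red points with names passed at an adjusted p below 0.05: 2 of the 10 genes and 9 of 71 partners, from Nrp1 at -0.79 to Cadm2 at 1.32.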

How the data were processed

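Each array compared a sorted pool (Cy3) with the Gfp-negative reference (Cy5). Spot intensity values were deposited by the authors as median pixel intensity of spot and local background per channel, with Agilent Feature Extraction (10.7.3.1, as per the file headers); no normalization had been applied. The same deposited files hold processed intensity values, used as an alternative, and flags of 0 or 1 for spots well above background, saturated or outlying (per the file headers). The submitters' processing notes also name RMA. A deposited series table gave probe annotation only; 8 value columns whose names match no sample label were not used.

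In R 4.3.3 with limma 3.58.1 (files read with the data.table package, version 1.17.8), background was corrected by normexp (offset 50) and arrays normalized by loess, with control and outlier spots (210 to 298 per array) at weight 0. Spots of a probe were averaged. Of 55681 probes, 27509 were named by accession (RefSeq genes, GRCm38.p6), 4124 by the deposited symbol and 24048 stayed unnamed. A probe was tested if well above background on at least 4 of 8 arrays, in the sample channel for rostral against caudal and in either channel otherwise. Groups were fitted together (lmFit, eBayes with intensity trend) and p-values adjusted by Benjamini-Hochberg over all probes tested, with 0.05 as the threshold. The plan spoke of spot signals, and median signals are what the files hold.

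Members, lists and rules were chosen with earlier results of these data known. Named are all 10 members, up to 4 partner genes per list and comparison by smallest p, and the 3 genes most correlated with the members of highest and lowest regional difference; the brightest probe (for members, among the deposited symbols' probes) stands for a gene. Alternatives covered signal, offset, normalization, filter, moderation, probes of a gene, single pools left out, replicate number and slide row as blocks, and channels. The number of arrays limits the precision. Tested on simulated data of 36976 probes for rostral against caudal, the fit recovered 12 of 100 probes changed by 0.5 on the log2 scale and 62 of 100 changed by 1, with 3 false calls. No other probes were changed and the noise was independent between probes, whereas 1236 probes were called in the data. Recovery in the data can therefore differ.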

Additional observations from a re-analysis of the deposited data

Results flagged for a closer look

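Nfasc differed between the portions by 0.66 and Cntn1 by 0.63 on the log2 scale, each by the test of the difference itself. For Nfasc, every rostral pool moved above the reference and every caudal pool below it. Caudal pool 1 stood apart from the other caudal pools for Nfasc, at -0.32; it was the caudal pool nearest to the rostral range. Chance sets apart about 5% of groups, and 24 groups of 4 pools were examined.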

How the results depend on the processing

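Cntn1 kept its regional call in all alternatives other than the fits within slide rows, and Nfasc lost it in part, as given above. Of the recomputed values of the 10 genes' probes, 181 of 185 kept direction and side of the threshold for both groups against the reference, 166 of 185 for rostral pools alone, 176 of 185 for caudal pools alone and 212 of 240 between the portions. These tallies include settings that cannot move a value, namely Aquantile and changes of filter, moderation or probes tested. For a single portion, leaving out a pool of the other portion also leaves the value unmoved. The shares kept therefore overstate how far the values were put to the test. Other signals or centring moved the median ratio of all probes from 0.03 to 0.11 (processed signals) and 0.13 (median centring), and the share of calls that were higher from 51.6% to 58.3% and 63.1%; in rostral pools alone median centring moved it from 50% to 62.8% and in caudal pools from 49.6% to 62.5%. Signs turned as follows; the cause was not tested. With processed signals, Ncam1 (A_51_P380309) was 0.040 over both groups and 0.088 in rostral pools, and Gap43 was 0.45. With median centring, Nfasc was 0.26 over both groups and Cntn1 was 0.24 in caudal pools. Regional differences near 0 also turned: Cntn2 (A_52_P365732) lay between -0.039 and 0.036 with single pools left out (below 0 without rostral pool 2 or 4 or caudal pool 4) and was -0.0013 within row 2; its probe A_66_P125925 was 0.12 within row 1; Ncam1 A_55_P2028942 lay between -0.23 and 0.058 (without caudal pool 4) and was 0.19 within row 1 and 0.026 in the sample channel alone; A_51_P380309 was -0.049 within row 2; A_55_P2050602 lay between -0.093 and 0.31 (below 0 without rostral pool 2 or 3 or caudal pool 1).

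The number of probes called between the portions was 1236. It lay between 639 (without caudal pool 1) and 1067 with 1 pool left out, and the next lowest were 641 without caudal pool 4, 762 without rostral pool 4, 814 without rostral pool 3 and 819 without caudal pool 3. Of the 10 genes 2 were called; this became 4 with the filter on all 8 arrays, 4 with the brightest probes alone, 4 with the mean over probes, and 1 to 3 with 1 pool left out. Within slide row 1 and row 2, 0 probes and 0 of the 10 genes were called (limma; 4126 and 3985 probes at an unadjusted p below 0.05); with the row as a block Cntn1 and Nfasc passed (adjusted p = 0.0110 and 0.0446). Of the partners 9 were called, 4 to 8 with 1 pool left out, 5 without the intensity trend, and 0 within each row. Deviations of same-numbered rostral and caudal pools correlated at -0.022 to 0.035, and 0 of 4 rostral pools correlated best with its own number. With 4 pools per group these values cannot decide whether the numbers pair the pools. With the replicate block 609 probes, 1 of the 10 genes (Cntn1, adjusted p = 0.0226, while Nfasc had 0.0801) and 5 partners were called. Aquantile between arrays leaves ratios unchanged by construction. Signal over background limits Cntn4, and no mean over probes was computed for the partner genes.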
